A study of Mus musculus with 4 samples.

Results

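The genes described are the metalloprotease families Mmp, Adam and Adamts and their inhibitors, the Timps. They were taken as every array feature whose single annotated symbol was Mmp, Adam, Adamts or Timp followed by a number and, at most, a letter. At gene level this gave 61 of 14847 named genes, and at exon level 1120 of 229581 probesets, each of which covers an exon or a part of one. Both levels together held 66 such genes, 5 of them at exon level only and 1 at gene level only. A further 4 gene-level clusters and 15 probesets named a family member together with another gene and were left out.

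RNA came from NMuMG cells, an epithelial line of the normal mouse mammary gland, and was read on Affymetrix exon arrays. One group was given recombinant human TGF-beta1 at 1 ng/ml for 24 h, and the other was left untreated. Both were grown in DMEM with 10% fetal bovine serum and 10 ug/ml insulin, so neither group was serum-free, and all cells were of 1 line. Each group had 1 array at each level, so no difference has a replicate check and no p-value is given.

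Matrix metalloproteases (Mmps) are zinc proteases that cut collagens, other matrix proteins and latent growth factors, some secreted and some held in the membrane. Adams are membrane proteins, many of which shed the outer parts of receptors and ligands, while Adamts proteases are secreted and cut proteoglycans, procollagens and other matrix proteins. Timps bind the active site of these enzymes, and TGF-beta is known for shifting the balance of matrix proteases and inhibitors in many cell types. Epithelial cells that turn mesenchymal commonly change their set of matrix proteases.

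All values are intensities on a linear scale as deposited, and each difference is log2(intensity + 1) with TGF-beta minus that of untreated cells. The term "at level" is used for a gene or probeset that reached the median of all values, 124 for genes and 265 for probesets, in at least 1 of the 2 arrays. A difference of at least 1 in size, which is 2-fold, counted as higher or lower. The spread (SD) given with a gene is that between its probesets at level and says nothing of the spread between cultures. Intensities of different genes or probesets are not on one scale, and only differences are compared between them.

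Of 8 epithelial markers measured, 6 were at level and 3 of these were at least 2-fold lower with TGF-beta, beside 8.7% of all genes at level. The 3 were the keratin Krt19 (−2.99), the tight-junction gene Ocln (−1.68) and Cdh1 (E-cadherin, −1.29). The summed intensity of the 8 was 14440.4 with TGF-beta and 21009 untreated, sums in which the brightest gene weighs most: Krt18 alone had 9785 with TGF-beta and 8494 untreated (0.20). Epcam, an adhesion protein of epithelia, was below level at 62.2 and 68.5. Of 7 fibroblast markers, 2 were at level, with single genes at 22.7 to 389 with TGF-beta and 20.5 to 199 untreated, and summed intensities of 955 and 573. None of 4 endothelial markers was at level. Of 5 leukocyte markers, 1 was at level, the lipopolysaccharide co-receptor Cd14 with 1032 with TGF-beta and 2126 untreated (−1.04). The pan-leukocyte gene Ptprc was at 16.6 and 16.9, and Csf1r, a receptor of macrophages, was below level at 78.8 and 47.7 (0.71), with all 5 of its probesets at level higher. The part of the marker changes in the results below was not tested. In bulk RNA, fewer cells of a type and less RNA per cell cannot be told apart.

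Of the 61 family members at gene level, 22 were at level. With TGF-beta, 5 of these were at least 2-fold higher (Timp3, Adam12, Adamts7, Mmp9 and Adam8) and 2 at least 2-fold lower (Mmp13 and Mmp28). The other 15 lay within 2-fold, 10 of them above 0 and 5 below. Among all 9159 genes at level, 2.28% were higher and 8.7% lower, against 22.7% and 9.09% of the members at level. The members at level had a median difference of 0.37, beside −0.27 over all genes at level. Of the 22 members, 16 were at level in both arrays. A further 4 passed through the TGF-beta array alone (Mmp9, Adamts8, Adam33 and Adamts13) and 2 through the untreated array alone (Adamts1 and Adam23). These 6 thus passed through the array in which they were higher. Without any level rule the same 5 and 2 genes passed the 2-fold rule among all 61 members, where 1.85% of all named genes were higher and 5.81% lower. With both arrays required to be at level, 4 of 16 members were higher and 2 lower, beside 1.89% and 7.15% of all such genes, and Mmp9 was the gene that dropped out. After centring on the median difference of all clusters, 6 members were higher and 2 lower, beside 2.94% and 6.05% of all genes at level. Quantile normalization gave 5 and 2 members, beside 3.7% and 4.4%. Subtraction of a lowess curve of difference on mean level gave 6 and 3 members, beside 3.62% and 4.64%.

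**Figure D1:**
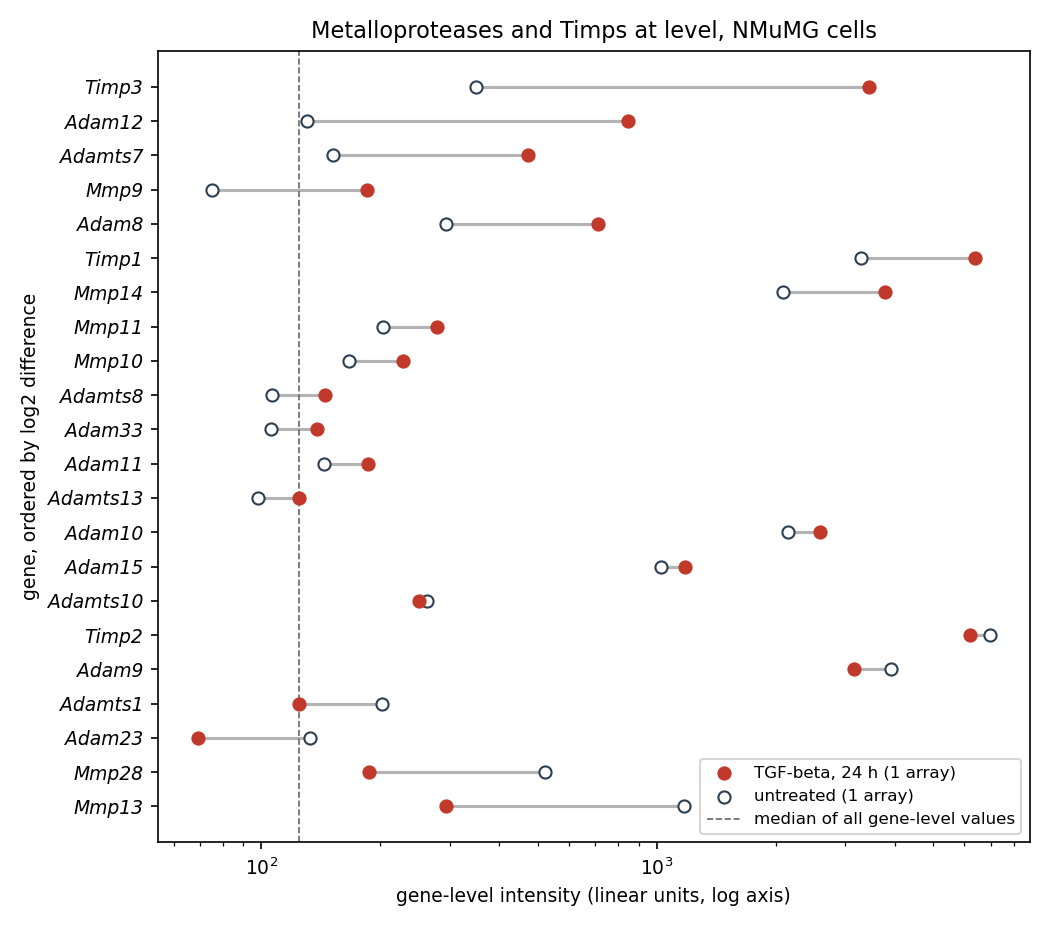
Gene-level intensities (log axis) of the 22 family members at level, with TGF-beta as filled and untreated as open points, 1 array each, and genes ordered by log2 difference. Timp3 (3446 with TGF-beta, 349.6 untreated) and Adam12 lie at the top, and Mmp28 and Mmp13 (293 and 1171) at the bottom. The dashed line is the median of all gene-level values (124).

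Of the 3 inhibitors at level, 1 was at least 2-fold higher and 2 lay within 2-fold. Timp3, which binds to the matrix and blocks Adams and Adamts proteases as well as Mmps, had a gene-level intensity of 3446 with TGF-beta and 349.6 untreated (transcript cluster 6769535), a log2 difference of 3.30. Its 12 probesets ran from 762 through a median of 4232 to 6232 with TGF-beta, and from 102 through 336 to 785 untreated. Every probeset was higher with TGF-beta, by 2.89 to 3.82, and their median was 3.39 ± 0.36 (SD).

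Timp1, a secreted inhibitor of most soluble Mmps, had 6376 with TGF-beta and 3282 untreated, a difference of 0.96 that lay just within 2-fold. All 5 of its probesets at level were higher, at a median of 0.91 ± 0.16 (SD). Centring the arrays moved the difference to 1.10 and subtraction of a lowess curve of difference on mean level to 1.01, past the 2-fold rule. Timp2, which also takes part in the activation of pro-Mmp2 at the cell surface, had 6206 with TGF-beta and 6974 untreated (−0.17), and all 9 of its probesets lay between −0.29 and −0.01. Its difference was −0.03 after centring, −0.21 after quantile normalization and −0.16 after the lowess subtraction. Timp4 was below level at 64.6 and 58.7. The inhibitors thus spanned 3.30 to −0.17 among the 3 at level.

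Among the secreted Mmps, the fibrillar collagenase of mouse tissues was lower and a gelatinase was higher. Mmp13, the main collagenase of mice, had 293 with TGF-beta and 1171 untreated (transcript cluster 6986719), a difference of −1.998. Its 12 probesets ran from 57.7 through 249 to 1399 with TGF-beta, and from 490.4 through 1097 to 3865 untreated. All 12 were at least 2-fold lower, from −3.07 to −1.18, with a median of −2.12 ± 0.52 (SD). The other collagenases, Mmp8, Mmp1a and Mmp1b, were below level, with at most 17.4 in either array.

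Mmp13 lies in a run of 10 Mmp genes on mouse chromosome 9 with no other protein-coding gene between them in RefSeq, of which 9 were measured at gene level. In order these are Mmp13, Mmp12, Mmp1b, Mmp3, Mmp1a, Mmp10, Mmp8, Mmp27, Mmp20 and Mmp7, with Mmp27 not analysed here. Only Mmp13 and the stromelysin Mmp10 were at level, and they differed in direction. Mmp10, which cuts proteoglycans and activates other Mmps, had 228 with TGF-beta and 167 untreated, a difference of 0.45 that lay within 2-fold. Its 5 probesets at level, of 14, were all higher at 0.66 ± 0.19 (SD), but 2 of them were at level with TGF-beta alone. The macrophage elastase Mmp12 (42.6 with TGF-beta, 25.1 untreated) had the largest difference of the members below level, at 0.74.

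Promoter sequences were taken from RefSeq (GRCm38.p6), 250 bases before to 50 after each annotated start, and 41 of the 66 genes matched. 3 motifs were searched on both strands. These were TGANTCA, a site of AP-1 transcription factors, TATAAA, the core of the TATA box, and CAGACA, a sequence bound by Smad proteins. In the sequences shown the matches do not overlap. TGANTCA was in 7.81% of all 32851 promoters, TATAAA in 13.6% and CAGACA in 21.0%. Of the 9 cluster genes with an entry, 8 held TGANTCA, all 9 held TATAAA and 6 held CAGACA, among them Mmp10 but not Mmp13. The promoters of Mmp13 and Mmp10 are shown because these genes of 1 cluster share TGANTCA and TATAAA and differ in direction, Mmp10 within 2-fold. That of Timp3 is shown because it belongs to the member with the largest difference and holds none of the 3 motifs. Capitals mark TGANTCA and TATAAA, and each sequence runs 5′ to 3′ along its gene.
Mmp13, chr9:7272264-7272563, plus strand: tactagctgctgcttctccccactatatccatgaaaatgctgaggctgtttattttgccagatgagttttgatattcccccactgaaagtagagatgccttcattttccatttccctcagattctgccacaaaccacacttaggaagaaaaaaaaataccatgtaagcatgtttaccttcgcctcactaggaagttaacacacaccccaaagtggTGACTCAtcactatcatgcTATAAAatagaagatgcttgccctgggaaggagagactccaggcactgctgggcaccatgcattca
Mmp10, chr9:7502092-7502391, plus strand: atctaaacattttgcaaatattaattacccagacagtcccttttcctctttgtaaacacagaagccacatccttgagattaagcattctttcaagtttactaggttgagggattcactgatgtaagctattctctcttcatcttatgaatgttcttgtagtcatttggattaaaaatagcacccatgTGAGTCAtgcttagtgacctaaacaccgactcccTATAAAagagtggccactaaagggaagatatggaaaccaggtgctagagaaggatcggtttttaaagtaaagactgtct
Timp3, chr10:86300162-86300461, plus strand: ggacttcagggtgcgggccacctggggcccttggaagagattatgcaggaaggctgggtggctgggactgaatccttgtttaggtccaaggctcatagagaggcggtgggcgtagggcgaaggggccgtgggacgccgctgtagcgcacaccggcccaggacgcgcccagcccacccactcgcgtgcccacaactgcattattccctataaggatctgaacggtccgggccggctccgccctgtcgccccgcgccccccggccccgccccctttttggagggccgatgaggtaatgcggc
In Mmp13 the first base of TGACTCA lay 35 bases before the annotated start, and in Mmp10 that of TGAGTCA lay 63 bases before it. The matches are descriptions of the letters, and binding was not measured. Among the 14 members at level with a promoter entry, Mmp13 and Mmp10 were the 2 with TGANTCA.

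Mmp9, the gelatinase that cuts type IV and denatured collagens, had 185 with TGF-beta and 75.2 untreated, a difference of 1.29. The untreated value lay below the level rule, so the size is uncertain. Only 4 of its 17 probesets were at level, with 409.7, 490.2, 280.5 and 325 with TGF-beta and 275, 263, 138 and 50.0 in the same probesets untreated. All 4 were higher, by 0.58, 0.90, 1.02 and 2.68, and so were all 17 when none was left out. Their median was 0.96 ± 0.94 (SD), or 1.30 over all 17. Mmp2, the other gelatinase, was just below level at 121 and 87.0 (0.47), with 2 probesets at level.

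Mmp28 (epilysin), a secreted Mmp of epithelia such as skin, had 187 with TGF-beta and 523 untreated, a difference of −1.48. Its 11 probesets at level did not move as a block: 8 were at least 2-fold lower, down to −2.99, while 2 lay above 0. The 3 lowest had 38.1, 147 and 169 with TGF-beta, against 310.0, 805 and 851 untreated. Probesets 5512831 and 4581277 had 515 and 718 with TGF-beta, against 413 and 612 untreated (0.32 and 0.23). The SD between probesets, 1.08, was the largest of any member with at least 5 probesets at level. Mmp11 (stromelysin-3), which is activated inside the cell by furin, lay within 2-fold at 278 and 203 (0.45), and all 7 of its probesets at level were higher.

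Of the membrane-type Mmps, which work at the cell surface, Mmp14 was the member at level by its gene value. Mmp14, the collagenase of the cell surface and activator of pro-Mmp2, had 3787 with TGF-beta and 2086 untreated, a difference of 0.86. Its 12 probesets at level ran from 1035 through 3778 to 4902 with TGF-beta, and from 672 through 1773 to 2739.6 untreated. All 12 were higher, by 0.62 to 1.20 with an SD of 0.19, and 4 passed 2-fold. Mmp15, a close relative measured at exon level only, had 9 of its 12 probesets at level below 0 and a median of −0.19 ± 0.43 (SD). Mmp16, Mmp17, Mmp23 and Mmp24 were below level at gene level.

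**Figure D2:**
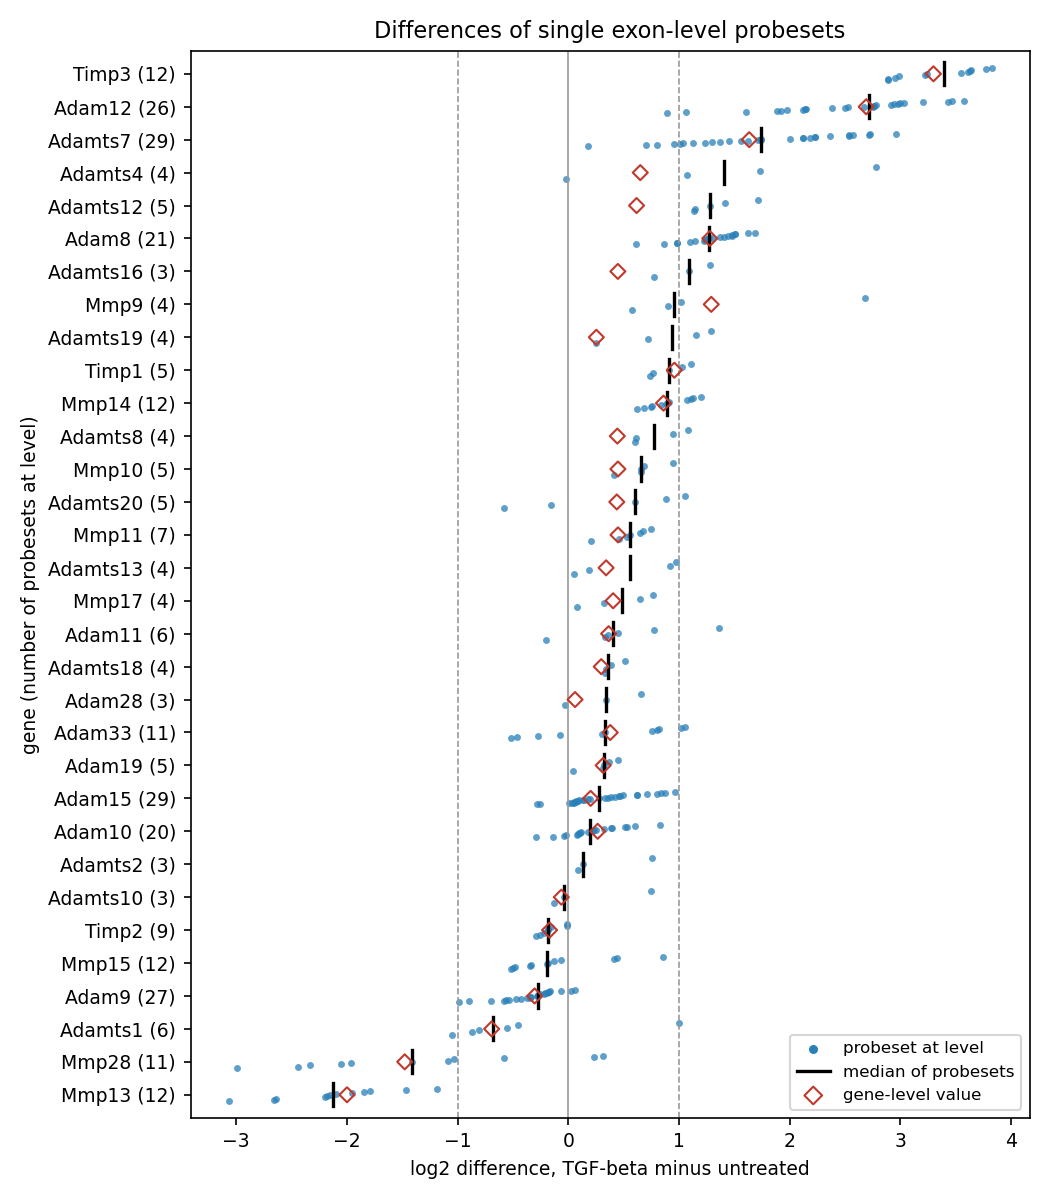
Log2 differences (TGF-beta minus untreated) of single probesets at level for the 32 members with at least 3 of them. Blue points are probesets, black bars their medians and red diamonds the gene-level values; dashed lines mark 2-fold. All points of Timp3, Adam12 and Adamts7 lie above 0 and all points of Mmp13 below it, while Mmp28 spans −2.99 to 0.32.

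Of the Adams expressed in body tissues outside the germ line, Adam12 and Adam8 were higher and the broadly acting sheddases lay within 2-fold. Adam12 (meltrin alpha), which sheds growth factors such as heparin-binding EGF and is known from muscle and bone precursors, had 846 with TGF-beta and 130.2 untreated (2.69). Its 26 probesets ran from 362 through 881 to 4201 with TGF-beta and from 32.0 through 136 to 623 untreated. All 26 were higher and 25 of them by at least 2-fold, with a median of 2.71 ± 0.68 (SD). Adam8, a protease best known from leukocytes, had 711 with TGF-beta and 293 untreated (1.28). Its 21 probesets at level ran from 316 through 676 to 2875 with TGF-beta and from 135 through 307 to 1011 untreated, and 17 of the 21 passed 2-fold with an SD of 0.26. Of the 21, 9 were at level through the TGF-beta array alone and so had to be higher. Without the level rule all 25 probesets of Adam8 were higher, at a median of 1.24. The part of the leukocyte markers, whose values are given above, was not tested.

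Adam10, the main sheddase of Notch and E-cadherin, had 2592 with TGF-beta and 2156 untreated (0.27), with 16 of 20 probesets above 0. Adam9, a widely expressed sheddase, had 3164 with TGF-beta and 3906 untreated (−0.30), with 25 of 27 probesets below 0, down to −0.99. Adam15, whose human form is known for binding integrins, had 1179.6 with TGF-beta and 1025 untreated (0.20), with 27 of 29 probesets above 0. All 3 thus lay within 2-fold, beside a median of −0.27 over all genes at level. After centring, Adam10 was at 0.40, Adam9 at −0.17 and Adam15 at 0.34. Adam33 had 138 with TGF-beta and 106 untreated (0.38), but its 11 probesets at level ran from −0.51 to 1.05. Adam19 and Adam28 were below level, and Adam17, the sheddase of tumour necrosis factor, was not analysed here.

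The neural Adams act as adhesion proteins without protease activity. Adam11 had 186 with TGF-beta and 144 untreated (0.36). Adam23 had 69.0 with TGF-beta and 133 untreated (−0.93) in the cluster used, and 51.3 and 85.3 (−0.72) in its second cluster. A single probeset of its 28 was at level, at 0.59, in the other direction. Of all 28, 2 were above 0, and their median was −0.69. The lowess subtraction moved the gene value of Adam23 to −1.06, past 2-fold. All 14 Adams of the reproductive tract measured at gene level were below level, with at most 74.5 with TGF-beta and 87.3 untreated.

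Among Adamts proteases, Adamts7 was the member that passed 2-fold at gene level. Adamts7, which cuts cartilage oligomeric matrix protein and thrombospondin-1, had 472 with TGF-beta and 151 untreated, a difference of 1.63. Its 29 probesets at level ran from 304 through 530.2 to 1504 with TGF-beta and from 51.6 through 164 to 1258 untreated. All 29 were higher and 25 passed 2-fold, with a median of 1.74 ± 0.70 (SD), and all 35 were higher without the level rule. Adamts1, which cuts versican and aggrecan, went the other way, with 124.4 with TGF-beta and 202 untreated (−0.69). Its TGF-beta value lay just below the level rule of 124.5. Adamts8 had 145 and 107 (0.44), Adamts10 had 251 and 262 (−0.06), and Adamts13, the protease of von Willebrand factor, had 125 and 98.1 (0.34), the last just at the level rule. The sign of Adamts10 turned under each of the 3 scalings, to at most 0.32.

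By the median of at least 3 probesets at level, 7 of 32 members were higher and 2 lower, beside 2.57% and 8.19% of all 9612 genes with such a median. The 7 were Timp3, Adam12, Adamts7 and Adam8 together with Adamts4, Adamts12 and Adamts16, which were dim at gene level, and the 2 were Mmp13 and Mmp28. A probeset that reached the level rule through 1 array alone had to be higher in that array, so the rule favours the direction of such probesets. Of the probesets at level, the TGF-beta array alone carried 3 of 4 in Adamts4, 3 of 5 in Adamts12 and 1 of 3 in Adamts16. It also carried 20 of 26 in Adam12, 21 of 29 in Adamts7, 9 of 21 in Adam8 and 3 of 12 in Timp3. The untreated array alone carried 7 of 12 in Mmp13 and 7 of 11 in Mmp28. In Adam12, Mmp13 and Timp3 every probeset was at level, so the rule left none out. Adamts12, which like Adamts7 cuts cartilage oligomeric matrix protein, had 5 of 30 probesets at level, with 1232, 894, 329, 508 and 327 with TGF-beta and 560.2, 403, 135, 189.6 and 99.1 in the same probesets untreated. All 5 differed by at least 2-fold, with a median of 1.28 ± 0.24 (SD), but the last 3 were at level with TGF-beta alone. Over all 30 probesets the median was 0.49, and its gene-level value was 84.7 and 54.9 (0.62), so it did not pass 2-fold by either.

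Adamts4, an aggrecanase, had 4 of 15 probesets at level. They read 339, 309, 279 and 477 with TGF-beta and 345, 146, 83.3 and 68.6 untreated, with differences from −0.02 to 2.78. The 1 probeset at level in both arrays, the first, was the one at −0.02. Its gene-level difference was 0.65. Adamts16 had 3 of 21 probesets at level and a median of 1.09 ± 0.26 (SD). For these 3 genes most probesets were below level, and the median over all their probesets was 1.08 for Adamts4, 0.49 for Adamts12 and 0.54 for Adamts16, so of the 3 Adamts4 alone passed 2-fold without the level rule. With both arrays required to be at level, 4 of 26 members were higher and 1 lower by probeset median, and no share over all genes is given for this setting. The lower gene that dropped out was Mmp28, whose 4 probesets at level in both arrays lay at −1.09, −0.58, 0.23 and 0.32. For the 21 members at level that also had at least 3 probesets at level, both levels gave the same direction in all 21, and the largest gap was 0.34, for Adamts8. Both levels were read from the same cultures, so this is no independent check. Adam23, the member at level that this minimum left out, differed in direction (−0.93 by gene, 0.59 in its 1 probeset at level). Adamts2, which removes the amino-terminal propeptide of procollagens and was measured at exon level only, had 3 of 24 probesets at level, at a median of 0.14 ± 0.37 (SD).

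**Figure D3:**
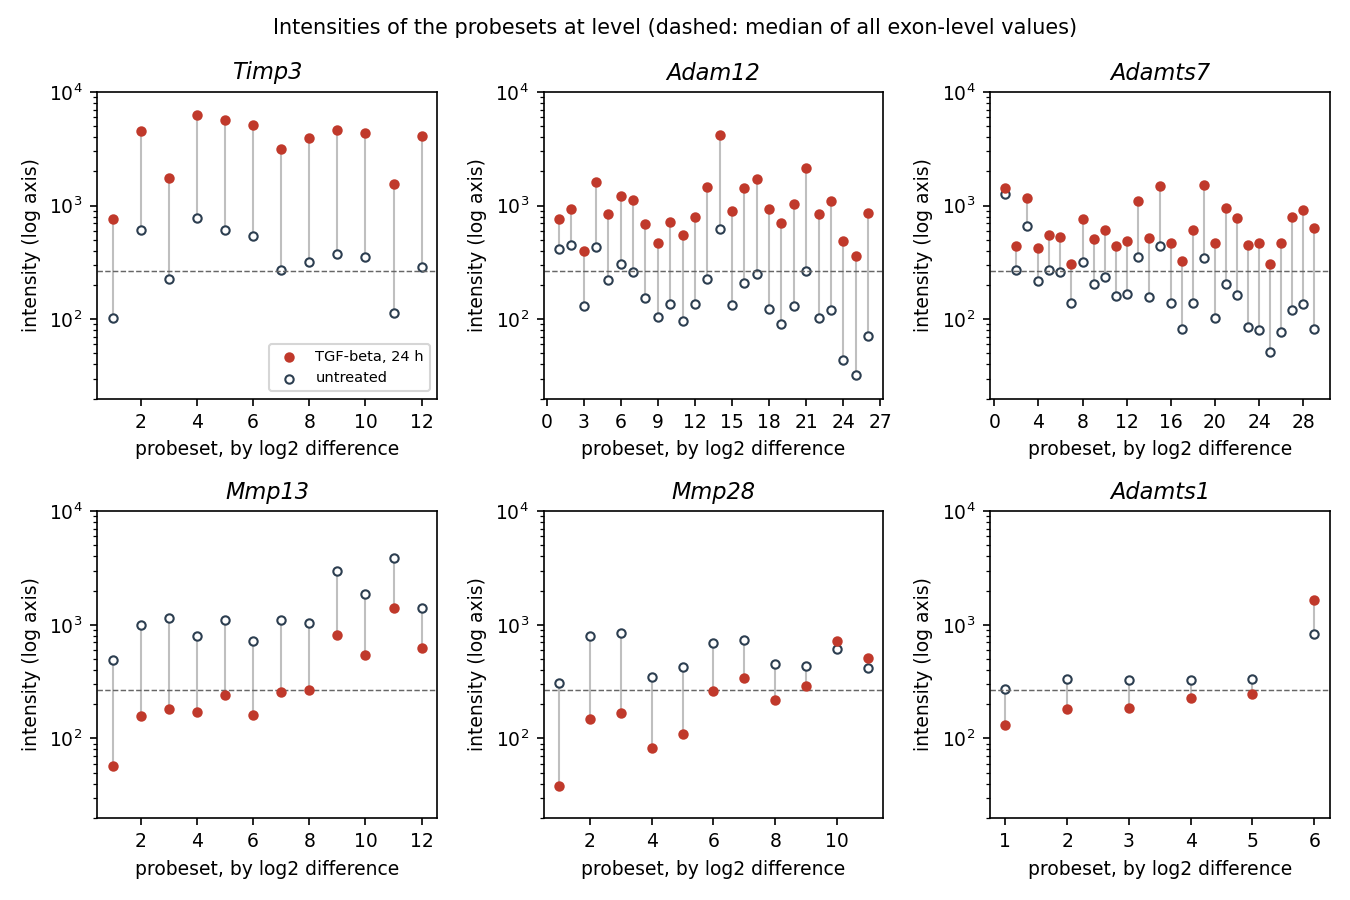
Intensities (log axis) of all probesets at level of 6 genes, ordered by log2 difference, with TGF-beta as filled and untreated as open points; the dashed line is the median of all exon-level values (265). In Timp3, Adam12 and Adamts7 the filled point lies above the open one in every probeset, in Mmp13 below it, and in Mmp28 and Adamts1 single probesets go against the rest.

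Single exons were compared with the rest of their gene by a splicing index, the difference of a probeset minus the median difference of the gene's other probesets at level; genes needed 5 probesets at level. Of 275 member probesets in 21 genes, 19 had an index of at least 1 in size, beside 3.64% of all 108360 probesets so tested. Of the 19, 8 were above the rest of their gene (2.02% of all probesets) and 11 below it (1.62%). These 19 came from 8 genes, with 6 in Mmp28, 4 in Adamts7, 3 in Adam12, 2 in Adam33 and 1 each in Adam11, Adamts1, Adamts20 and Mmp15. With both arrays at level the count was 5 of 168 member probesets, not all of them among the 19, beside 1.44% of all such probesets. With a pseudocount of 64 it was 8 of 275, for which no share over all probesets is given. The positions of the probesets in their genes were not used here.

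In Mmp28 the index ran from −1.74 in probeset 5155040 to 2.005 in probeset 5512831, with the values given above. In Adam12, probeset 4441231 had 769 with TGF-beta and 415 untreated, a difference of 0.89 against a median of 2.75 for the others (index −1.86). Probeset 5422824 had 935 and 448 (index −1.69), and probeset 4769718 had 396 and 129 (index −1.14). All 3 were higher with TGF-beta but by less than the rest of the gene.

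In Adamts7, probeset 5024366 had 1424 with TGF-beta and 1258 untreated, a difference of 0.18 (index −1.56), and probeset 4981041 had 639 and 81.4, a difference of 2.96 (index 1.23). Probeset 4480707 (index −1.04) and probeset 4411710 (index 1.00) were the other 2. In Adamts1, probeset 4571976 had 1666 with TGF-beta and 832 untreated (1.00), while its other 5 probesets at level lay between −1.05 and −0.45, so this single probeset had an index of 1.81. Those 5 were at level through the untreated array alone, so the level rule fixed their direction. Over all 17 probesets of Adamts1, 1 was above 0 and the median was −0.80. Adamts20 had a low index in probeset 5576302 (−1.33), as had Adam33 in 2 probesets (−1.06 and −1.01). The indices of Mmp15 (1.05) and Adam11 (1.00) were just past the rule. With both arrays at level, probesets of Adam12 (4441231, −1.09, and 4624780, 1.10), Adamts7 (5024366, −1.06, and 4786665, 1.11) and Adam33 (5512933, −1.06) passed. Of these, 4624780 and 4786665 had an index of only 0.32 and 0.40 under the main level rule. Mmp28 and Adamts20 had 4 probesets at level in both arrays and Adamts1 had 1. These genes fell short of the 5 needed and were not scored there.

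The 39 members below level had intensities of 8.53 to 123 with TGF-beta and 6.65 to 92.8 untreated. Of these, 32 had a difference above 0, with a median of 0.23 and a range from −0.54 (Adam4) to 0.74 (Mmp12). Among all 5688 genes below level, 73.6% were above 0 with a median of 0.21, so the members' share of 82.1% was near that of dim genes at large. At level the share above 0 was 68.2% for members and 27.7% for all genes. The 39 comprised 14 of 20 Mmps, 17 of 25 Adams, 7 of 12 Adamts genes and 1 of 4 Timps. At exon level, 334 of the 1120 probesets were at level, in 46 of 65 genes. Of the 334, 107 were at least 2-fold higher and 21 lower, beside 3.55% and 11.6% of all named probesets at level, but probesets of 1 gene share its transcript, and 12, 25 and 25 of the 107 belonged to Timp3, Adam12 and Adamts7.

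**Figure D4:**
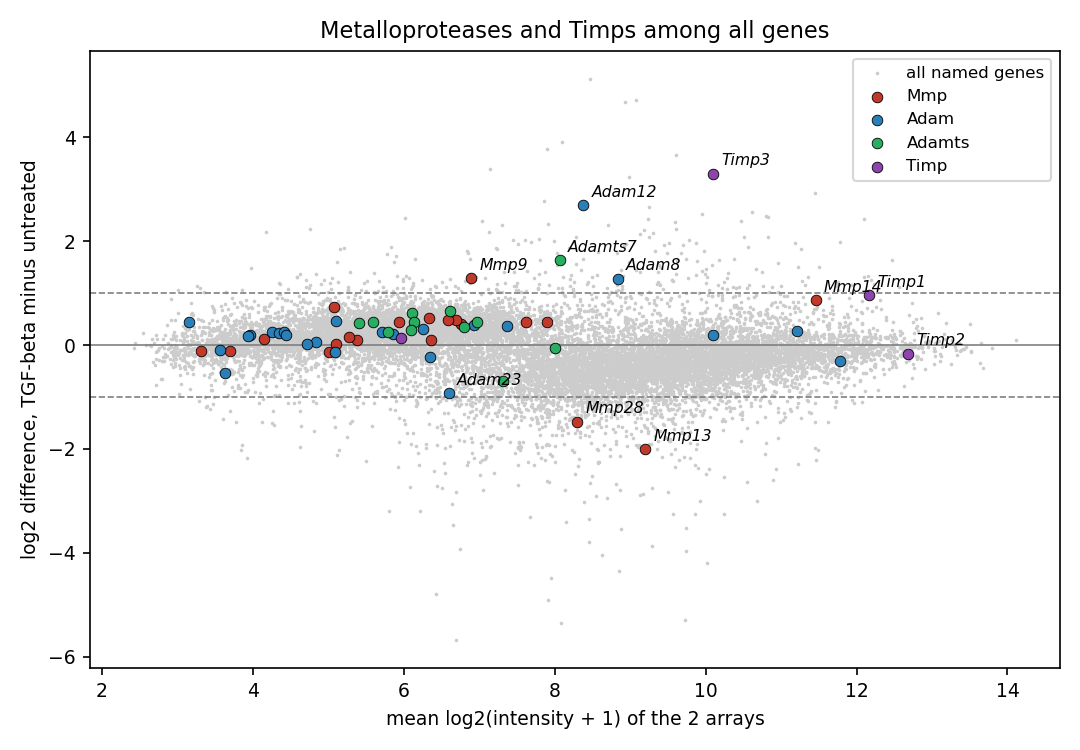
Log2 difference (TGF-beta minus untreated) against mean log2(intensity + 1) of the 2 arrays for all 14847 named genes (grey) and the 61 family members (coloured by family), with dashed lines at 2-fold. Members at the dim left side lie with the mass of other genes slightly above 0, and Timp3, Adam12, Adamts7, Mmp9 and Adam8 lie above the upper line.

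Regulators of the families were read from a list of 24 genes, 22 of them measured and 16 at level. None was at least 2-fold higher, 2 were at least 2-fold lower and 14 did not reach 2-fold. Among all genes at level, 2.28% were higher and 8.7% lower. The median difference of the 16 regulators was 0.08, beside −0.27 for all genes at level. Both lower genes were tetraspanins of the TspanC8 group, which carry Adam10 out of the endoplasmic reticulum and steer its choice of substrates. Tspan15, which is known to favour shedding of N-cadherin by Adam10, had 461 with TGF-beta and 2401 untreated (−2.38), with all 10 probesets below 0 and an SD of 1.05. Tspan5 had 449.7 with TGF-beta and 1248 untreated (−1.47), with 1 of 16 probesets above 0.

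Tspan10 had 161 with TGF-beta and 98.4 untreated (0.70). The remaining TspanC8 genes, given although chosen after their values were seen, were Tspan14 (944 and 791, 0.26), Tspan17 (874 and 845, 0.05) and, below level, Tspan33 (88.3 and 74.2). Of the 6, thus 2 were lower and 3 of those at level within 2-fold, beside 0.27 for Adam10 itself. The urokinase gene Plau, whose product starts a cascade that activates Mmps, had 644 with TGF-beta and 339 untreated (0.92), and passed 2-fold under each of the 3 scalings (1.06 to 1.35). The other plasminogen activator and the proprotein convertases at level are given although chosen after their values were seen. Furin, which activates Adams and membrane-type Mmps, had 5349 with TGF-beta and 3470.3 untreated (0.62), with all 19 probesets higher. The convertase Pcsk7 had 374 with TGF-beta and 579 untreated (−0.63), with 0 of 15 probesets above 0. The tissue plasminogen activator Plat had 534 with TGF-beta and 822 untreated (−0.62), with 0 of 18 above 0. These 3 lay within 2-fold and did not share a direction.

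Of 16 related metalloproteases and Adamts-like proteins, 14 were measured and 7 at level. Of these 7, 1 was higher and 2 lower, beside 2.28% and 8.7% of all genes at level, while 4 did not reach 2-fold. The median difference of the 7 was −0.36. Bmp1, the astacin protease that trims the carboxy-terminal end of procollagens, had 5139.9 with TGF-beta and 2249 untreated (1.19), with all 23 probesets higher. Meprin alpha (Mep1a), an astacin of gut and kidney epithelium, had 26.5 with TGF-beta and 416 untreated (−3.92); the TGF-beta value lay below the level rule, so the size is uncertain. Neprilysin (Mme), which cuts peptides at the cell surface, had 37.7 with TGF-beta and 125 untreated (−1.70), the untreated value just at the level rule and the other below it. Adamtsl5, a protein with Adamts-like domains but no protease, had 491 with TGF-beta and 813 untreated (−0.73).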

How the data were processed

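The authors deposited intensities on a linear scale, summarised per transcript cluster and per exon probeset from core probesets, per the series' design text. For background correction, normalization, software and build, no step is recorded in the labels. The design text speaks of 2 samples, so both levels were read as the same cultures and never as replicates. All 62 member clusters were named by gene identifier through a RefSeq table (GRCm38.p6). Where a symbol had several clusters, that with the highest mean was used. Differences, the level rule and the splicing index were computed in Python 3.11.15 with pandas 2.3.3 and tested on simulated data. With 1 array per group there was no test, and the number of arrays limits the precision. All members at level are named with their values. Genes of the 2 accessory lists are named by size of difference, at least 4 per list, others only where marked as chosen after their values were seen, and probesets by an index of at least 1 in size. The members and lists were chosen with earlier results of these data known. Alternatives were other level rules, scalings (centring, quantile normalization, removal of a lowess curve), pseudocounts of 16 and 64, and probeset minimums.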

Additional observations from a re-analysis of the deposited data

How the results depend on the processing

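No paired analysis was possible because each group held 1 array and the labels give no replicate numbers. At gene level the counts of 5 higher and 2 lower members stayed within 1.5 times under all settings except a level rule at the 75th percentile, which left 10 members, 3 higher and 1 lower. Mmp9 dropped out of the higher genes with both arrays at level and with a pseudocount of 64, and Timp1 joined them after centring and after removal of the lowess curve. The median difference of 0.37, beside −0.27 for all genes, moved with the setting, and so did that of all genes. It was 0.26 without a level rule (all genes −0.06), 0.56 at the 75th percentile (−0.27) and 0.51 after centring (−0.14). After quantile normalization it was 0.52 (−0.01), and with a pseudocount of 64 it was 0.26 (−0.25). For counts in this section, a share over all features is given only where stated above, so the others lack that comparison. By probeset median, 7 of 32 members were higher and 2 lower. These counts were 4 and 1 of 26 with both arrays at level and 4 and 1 of 11 at the 75th percentile. After centring, 11 of 32 were higher. Centring subtracted the median over all probesets (−0.14) from every difference, and no share over all genes is given for it. Departing probesets were 19 of 275 under the main rule and 109 of 1108 without a level rule. They were 5 of 168 with both arrays at level, 1 of 131 at the 75th percentile and 8 of 275 with a pseudocount of 64. These level rules leave fewer or more features by construction; other causes were not tested. Of 132 recomputed differences of named members, 4 changed sign, in Adamts10 and Adam23. Signal near background cannot be told from background here, since no detection values were used.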
